A study of Homo sapiens with 2 samples.

Results

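Forkhead genes encode transcription factors that share a winged-helix DNA-binding domain. The genes examined were the protein-coding genes of chromosomes 1 to 22 whose GENCODE name starts with FOX, a letter from A to S and a digit. This gave 50 genes in 19 subfamilies, of 19229 protein-coding genes on those chromosomes. One of them, FOXL2NB, is the divergent neighbour of FOXL2 and not a forkhead gene, and 6 are FOXD4-like copies that resemble FOXD4 in sequence. The X-linked FOXO4, FOXP3 and FOXR2 lay outside the rule. The genes were chosen by name and not by any measured value.

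ATAC-seq was used to find open chromatin, which the transposase Tn5 enters and cuts. Both libraries were made from G401 cells, an established malignant rhabdoid tumor line that the study describes as SMARCB1-deficient. One culture was treated with DMSO, the solvent, and the other with MAK683 at 3 μM, a small molecule that binds EED in PRC2. Treatment lasted 3 days, the dose is that of the series description, and no other treatment or allele distinguishes the groups in the labels. With 1 library per group, the differences could not be checked against replicates, and p-values were not calculated.

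PRC2 trimethylates histone H3 on lysine 27, and this mark covers the CpG-rich promoters of many developmental regulators that a cell does not use. Many forkhead genes are such regulators: FOXA genes act in endoderm, FOXF genes in the mesenchyme of lung and gut, and FOXD1 in the stroma of the developing kidney. Others, such as FOXK, FOXM1 and FOXO genes, work in most cells, in metabolism, cell division or the response to insulin. The study lists FOXO1 in the gene group that carried more of the lysine 27 mark than its other groups in G401 cells.

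The DMSO library held 16598348 tags after filtering and the MAK683 library 18265284. On chromosomes 1 to 22 the authors called 111987 and 158856 peaks, a ratio of 1.42, and covered bases had a ratio of 1.14. The lowest listed peak had 6 tags in both libraries, so a weaker signal is not seen here. SMARCB1, the gene lost in this line, had no promoter peak in either library. All 5 mesenchymal markers examined had a promoter peak in both libraries, as did 3 of 4 epithelial markers (not KRT19), 2 of 4 blood markers (not PTPRC or CD3E) and 1 of 3 liver markers (ALB had none and SERPINA1 a peak in MAK683 alone). A promoter peak does not show expression, so these markers cannot set the cell type.

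Promoter sequences are shown for the forkhead genes at the ends of the range of change. Each is the 250 bases before the TSS from the RefSeq promoter table, placed in GRCh37 by exact match, 5′ to 3′ on the strand of the gene, with CpG sites in capitals. FOXI3 and FOXB2 had the highest ratios of MAK683 to DMSO height among genes with a RefSeq entry at the same TSS and FOXK2 and FOXA3 the lowest. FOXP2 and FOXQ1 had a peak only in MAK683, and FOXN1 and FOXR1 had none in either library.
FOXI3, chr2:88752212-88752461, minus strand: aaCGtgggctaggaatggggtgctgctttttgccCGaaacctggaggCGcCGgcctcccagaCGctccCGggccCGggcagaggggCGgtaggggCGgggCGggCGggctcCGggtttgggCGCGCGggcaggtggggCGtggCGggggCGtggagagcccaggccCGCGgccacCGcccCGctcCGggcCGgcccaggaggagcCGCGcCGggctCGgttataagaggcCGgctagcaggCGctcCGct
FOXB2, chr9:79634321-79634570, plus strand: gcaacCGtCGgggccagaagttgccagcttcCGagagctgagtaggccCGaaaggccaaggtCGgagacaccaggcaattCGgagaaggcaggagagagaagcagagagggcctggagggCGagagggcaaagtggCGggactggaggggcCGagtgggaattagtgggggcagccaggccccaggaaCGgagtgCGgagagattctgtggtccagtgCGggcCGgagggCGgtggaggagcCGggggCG
FOXK2, chr17:80477358-80477607, plus strand: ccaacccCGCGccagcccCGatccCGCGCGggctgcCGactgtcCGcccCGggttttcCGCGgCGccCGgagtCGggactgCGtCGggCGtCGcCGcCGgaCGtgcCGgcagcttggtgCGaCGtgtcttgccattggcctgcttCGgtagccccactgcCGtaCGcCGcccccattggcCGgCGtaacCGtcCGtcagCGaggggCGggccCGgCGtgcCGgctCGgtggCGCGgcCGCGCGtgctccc
FOXA3, chr19:46367334-46367583, plus strand: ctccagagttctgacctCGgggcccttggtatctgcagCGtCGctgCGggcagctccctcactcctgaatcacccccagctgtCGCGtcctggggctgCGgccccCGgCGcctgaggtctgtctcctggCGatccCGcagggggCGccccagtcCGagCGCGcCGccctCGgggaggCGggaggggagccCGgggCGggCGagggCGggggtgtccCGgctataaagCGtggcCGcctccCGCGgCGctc
FOXP2, chr7:114054620-114054869, plus strand: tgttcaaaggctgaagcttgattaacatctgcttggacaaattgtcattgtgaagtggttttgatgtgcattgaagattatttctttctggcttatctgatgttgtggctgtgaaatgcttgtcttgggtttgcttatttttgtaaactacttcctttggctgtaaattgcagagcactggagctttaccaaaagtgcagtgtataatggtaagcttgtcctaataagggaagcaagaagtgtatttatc
FOXQ1, chr6:1312083-1312332, plus strand: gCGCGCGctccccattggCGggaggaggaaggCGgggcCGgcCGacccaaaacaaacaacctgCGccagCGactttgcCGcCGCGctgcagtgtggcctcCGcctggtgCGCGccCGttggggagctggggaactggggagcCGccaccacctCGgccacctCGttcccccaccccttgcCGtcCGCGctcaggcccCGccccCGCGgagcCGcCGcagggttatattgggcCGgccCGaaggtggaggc
FOXN1, chr17:26833116-26833365, plus strand: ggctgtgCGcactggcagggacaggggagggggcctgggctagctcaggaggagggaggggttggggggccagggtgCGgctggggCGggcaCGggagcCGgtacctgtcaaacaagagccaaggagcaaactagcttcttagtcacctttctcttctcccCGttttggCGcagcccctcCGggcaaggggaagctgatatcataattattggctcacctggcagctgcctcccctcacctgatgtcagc
FOXR1, chr11:118842221-118842470, plus strand: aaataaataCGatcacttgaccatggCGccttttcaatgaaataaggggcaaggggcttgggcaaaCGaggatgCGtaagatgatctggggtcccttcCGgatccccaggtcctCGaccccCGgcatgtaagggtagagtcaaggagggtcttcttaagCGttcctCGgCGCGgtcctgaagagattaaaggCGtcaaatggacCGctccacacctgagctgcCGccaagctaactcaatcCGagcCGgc

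The printed promoters differed in CpG content within each kind. FOXI3 had 31 CpG sites and FOXB2 had 16, while FOXK2 had 43 and FOXA3 had 28. FOXQ1 had 29, and the tallest peak of FOXP2 lay over a promoter with 0 CpG sites and 37.6% G or C. FOXN1 had 8 and FOXR1 had 16. The summits of FOXB2 (-880 and -2866 bp from the TSS), FOXA3 (-1131 and -1126 bp) and FOXI3 (1570 and 668 bp) lay outside the bases printed. Over all 50 genes the 250 bases before the TSS held a median of 21.5 CpG sites, against 18 for all protein-coding genes. Within 3 kb on either side of the TSS the forkhead genes had a median of 284 CpG sites and all protein-coding genes 159. The forkhead core motif TGTTTAC, searched on both strands, was in the 250 bases before the TSS of 0 of the 50 genes, and 2.12% of all protein-coding genes had it.

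The first question was whether these promoters were accessible. A promoter peak is a peak that comes within 3 kb of the TSS, and its height is the tallest pileup per 1000000 tags (RPM). Of the 50 genes, 39 had a promoter peak in DMSO and 44 in MAK683, or 78% and 88%, against 74% and 80% of all protein-coding genes. Peaks in both libraries were present at 38 genes, or 76%, against 72.1% of all. A peak only in MAK683 was present at 6 genes, or 12% (FOXP2, FOXQ1, FOXI1, FOXL3 and FOXD4L4 among them), and 7.92% of all protein-coding genes had one. Only FOXD4L6 had a peak in DMSO alone, or 2% against 1.86% in the background. FOXE3, FOXN1, FOXR1, FOXD4L2 and FOXD4L5 had none in either library, or 10% against 18.1%.

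Among the 38 genes with a peak in both libraries, 10 were higher in MAK683, or 26.3%, and 13.5% of all 13869 protein-coding genes with a peak in both were higher. On the log2 scale, heights in MAK683 relative to DMSO had a median of -0.27 for the forkhead genes (95% order-statistic interval -0.37 to -0.14) and -0.46 for all. With the lowest listed height in place of a missing peak, the medians were -0.22 over 45 genes and -0.42 over all. The median over all genes was below 0, and 27 of the 38 forkhead genes lay above it, or 71.1%, against 49.8% of all genes, which a median fixes by construction. FOXD4L3, FOXF2 and FOXJ3 had equal tags in both libraries, and FOXA1 and FOXD1 had 1 tag more in MAK683, so these 5 were lower only after scaling for depth. The difference from the background also depended on the height. At a mean height under 1 RPM, 6 of 14 forkhead genes were higher in MAK683, or 42.9%, which is near the 37.6% of all genes of that height, and both medians were -0.14. At 1 RPM or more, 4 of 24 were higher, or 16.7% against 8.52%, with medians of -0.32 and -0.50. Forkhead promoters had lower peaks to begin with: half-way heights in DMSO (medians) were 1.27 RPM for the 38 genes and 1.99 RPM for the background. A single cut at 1 RPM does not match the heights above it, so a difference at like height was not tested there. This split by height was chosen after the data were seen.

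**Figure D1:**
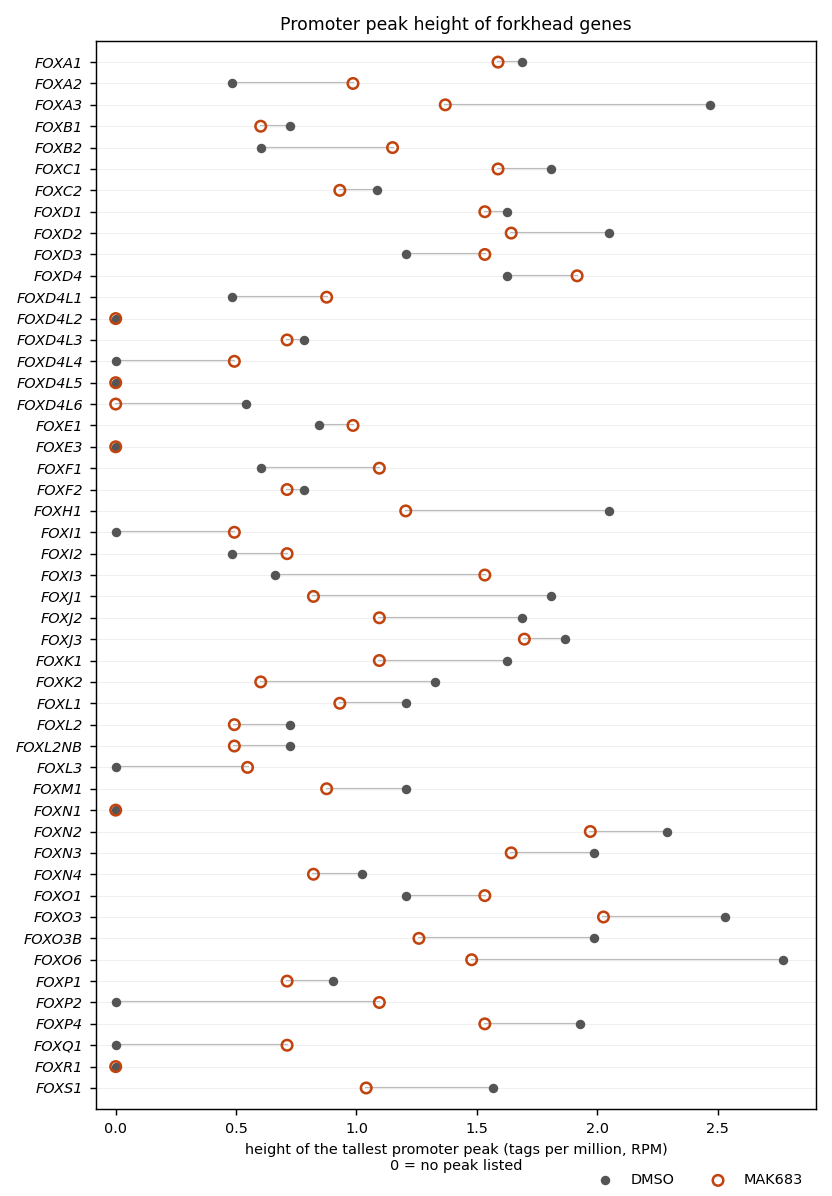
Height of the tallest promoter peak in RPM for the forkhead genes, in DMSO (filled points) and MAK683 (open circles), with 1 library each; 0 marks a gene with no listed peak. Most genes above 1.5 RPM in DMSO were lower in MAK683, and FOXP2 and FOXQ1 go from no DMSO peak to 1.09 and 0.712 RPM.

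The 95% counting interval of the log2 ratio excluded 0 upwards at FOXI3 alone, or 2.63% of the 38 genes, against 0.952% of all. It excluded 0 downwards at FOXA3, FOXJ1, FOXK2 and FOXO6, or 10.5% against 20.9%. Without depth scaling only FOXJ1 and FOXO6 of these 4 kept such an interval, or 5.26% against 10.2%, and at a −log10 q of 10 or more FOXI3 had no DMSO peak left. Heights at least 2-fold higher in MAK683 were found at FOXI3 and FOXA2, or 5.26% against 1.13% of all. At least 2-fold lower heights were found at FOXJ1 and FOXK2, or 5.26% against 5.86%. These intervals cover counting error only and not the variation between cultures.

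**Figure D2:**
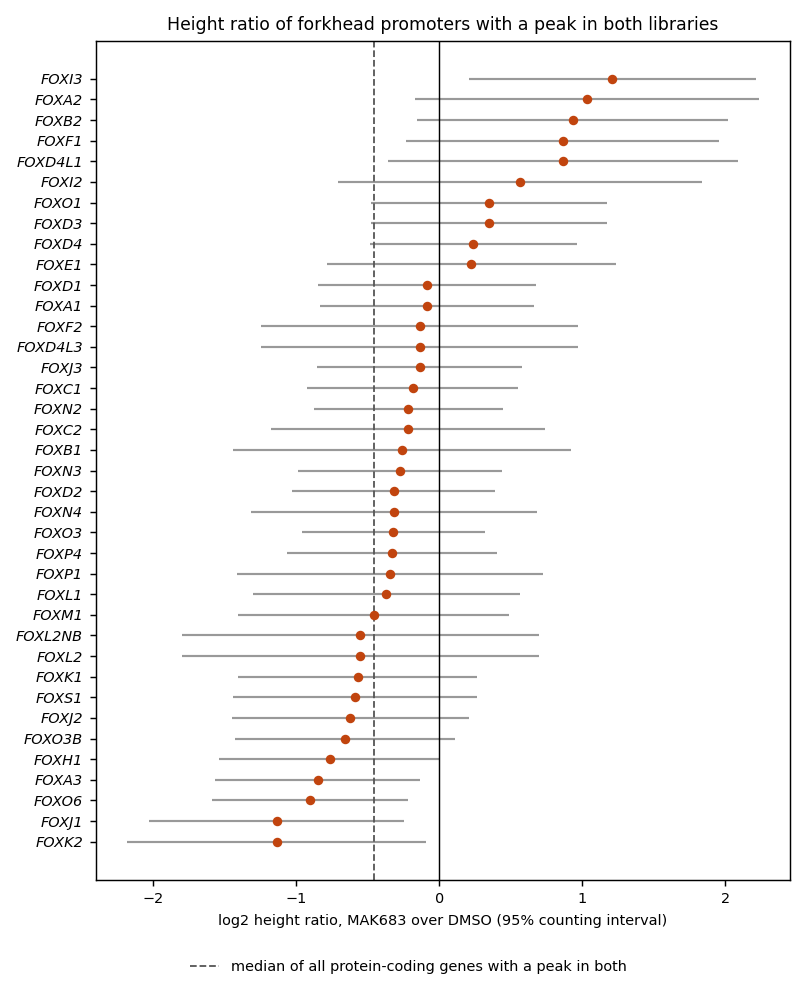
Log2 ratio of MAK683 to DMSO promoter height for the 38 forkhead genes with a peak in both libraries; bars are 95% Poisson counting intervals and the dashed line is the median of all protein-coding genes with a peak in both (-0.46). FOXI3 stands highest at 1.21, and the intervals of FOXA3, FOXJ1, FOXK2 and FOXO6 lie below 0.

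The FOXA subfamily, pioneer factors that open chromatin in endoderm, was split. FOXA1 had 28 tags in DMSO and 29 in MAK683, or 1.69 and 1.59 RPM. The protein-coding gene TTC6 starts on the other strand at -380 bp from the FOXA1 TSS and shares these peaks. FOXA2 (ENSG00000125798; chromosome 20, 22561636 to 22566093, minus strand) had 8 and 18 tags, or 0.482 (95% exact Clopper-Pearson interval 0.208 to 0.95) and 0.985 RPM (0.584 to 1.56), a log2 ratio of 1.03 (-0.17 to 2.23). Both FOXA2 peaks lay upstream of the gene, with summits at -2606 and -2251 bp from the TSS in DMSO and MAK683. The FOXA2 interval includes 0. FOXA3 moved the other way, from 41 tags and 2.47 RPM (1.77 to 3.35) to 25 tags and 1.37 RPM (0.886 to 2.02), a log2 ratio of -0.85 (-1.57 to -0.13). SYMPK starts on the other strand at -1179 bp from the FOXA3 TSS, and the summits, at -1131 and -1126 bp, lay close to that start. The FOXA3 value therefore cannot be told apart from one of SYMPK.

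The FOXF subfamily, targets of Hedgehog signalling in mesenchyme, had low peaks in DMSO. FOXF1 (chromosome 16, 86544133 to 86549028, plus strand) had 10 tags in DMSO and 20 in MAK683, or 0.602 (0.289 to 1.11) and 1.09 RPM (0.669 to 1.69), with the log2 ratio at 0.86 (-0.23 to 1.96). FOXF2 had 13 tags in each, or 0.783 and 0.712 RPM. The FOXF1 peaks overlapped and had summits at -912 and -731 bp from the TSS, whereas those of FOXF2 were different peaks, in a coding exon in DMSO and upstream in MAK683. FENDRR, a long noncoding RNA gene, starts at -1478 bp from the FOXF1 TSS and shares its peaks.

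The FOXB subfamily includes FOXB1, a gene of the developing hypothalamus. FOXB2 (chromosome 9, 79634571 to 79635869, plus strand) had 10 tags in DMSO and 21 in MAK683, or 0.602 and 1.15 RPM, and a log2 ratio of 0.93 (-0.15 to 2.02). FOXB1 had 12 and 11 tags, or 0.723 and 0.602 RPM, at peaks on opposite sides of the TSS. The FOXB1 interval spans 0 widely (-1.44 to 0.92).

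FOXC1 and FOXC2, regulators of mesoderm, eye and vessel development, were near equal in both libraries. FOXC1 had 30 and 29 tags, or 1.81 RPM in DMSO and 1.59 in MAK683, with summits at -168 and -153 bp from the TSS. FOXC2 had 18 and 17 tags, or 1.08 and 0.931 RPM, at different peaks. The log2 ratios of -0.19 and -0.22 had intervals that include 0.

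FOXD1, FOXD2 and FOXD3, of which FOXD3 acts in the neural crest, were accessible in both libraries. FOXD1 had 27 and 28 tags, or 1.63 RPM in DMSO and 1.53 in MAK683. FOXD2 had 34 and 30, or 2.05 and 1.64 RPM. FOXD3 had 20 and 28, or 1.20 and 1.53 RPM, with a log2 ratio of 0.35 (-0.48 to 1.18) and both summits in its coding exon. The intervals of these 3 ratios include 0. FOXD4 had 27 and 35 tags, but both summits lay over 3 kb from its TSS, at 4190 and 4258 bp. Its log2 ratio of 0.24 was -0.40 with a 1 kb window and -0.14 with summits within 3 kb. Among the 6 FOXD4-like copies, FOXD4L1 had 8 tags in DMSO and 16 in MAK683, FOXD4L3 had 13 in each, FOXD4L4 had 9 in MAK683 alone and FOXD4L6 had 9 in DMSO alone. Reads of near-identical copies may be placed at any of them, so these values are uncertain.

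FOXQ1 and the FOXE, FOXH and FOXI genes are tissue-restricted regulators. FOXQ1 (chromosome 6, 1312333 to 1314993, plus strand) had no DMSO peak and 13 tags in MAK683, or 0.712 RPM (0.379 to 1.22), with the summit at -60 bp from the TSS. This peak, at 1311314 to 1312503, exceeded the lowest listed height of 6 tags and covered the TSS. FOXI3 (chromosome 2, 88746306 to 88752211, minus strand) had 11 tags in DMSO, or 0.663 RPM (0.331 to 1.19), and 28 in MAK683, or 1.53 RPM (1.02 to 2.22). Its log2 ratio of 1.21 (0.20 to 2.22) was the highest of the 38 genes. FOXI2 had 8 and 13 tags, with a log2 ratio of 0.56 that was -0.14 with a 1 kb window, and FOXI1, a gene of ion-transporting cells of the inner ear and kidney, had 9 in MAK683 alone. FOXE1, a thyroid regulator, had 14 and 18 tags, or 0.843 RPM in DMSO and 0.985 in MAK683. FOXH1, a partner of SMAD proteins, had 34 and 22 tags (2.05 and 1.20 RPM) in peaks shared with PPP1R16A, and its log2 ratio was -0.77 (-1.54 to 0.01). Its direction depended on the peak taken, since the DMSO summit lay at -3296 bp: the ratio was 1.32 when summits had to lie within 3 kb and -1.64 with a 1 kb window.

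The 5 FOXJ and FOXK promoters had lower RPM in MAK683, FOXJ3 only after scaling for depth. Lower heights were common, as 13.5% of all genes with a peak in both libraries were higher. FOXJ1 (chromosome 17, 74132414 to 74137326, minus strand), the regulator of motile cilia, had 30 tags in DMSO and 15 in MAK683, or 1.81 (1.22 to 2.58) and 0.821 RPM (0.46 to 1.35), with the log2 ratio at -1.14 (-2.03 to -0.24). FOXK2 (chromosome 17, 80477589 to 80602538, plus strand) had 22 and 11 tags, or 1.33 (0.831 to 2.01) and 0.602 RPM (0.301 to 1.08), with the log2 ratio at -1.14 (-2.18 to -0.09). The FOXK2 summits lay at -156 and -130 bp from the TSS. FOXJ2 had 28 and 20 tags, FOXJ3 had 31 in each and FOXK1 had 27 and 20. Their ratios of -0.62, -0.14 and -0.57 had intervals that include 0.

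The FOXO genes are switched off by insulin through AKT. FOXO1 (chromosome 13, 41129804 to 41240778, minus strand) had 20 tags in DMSO and 28 in MAK683, or 1.20 and 1.53 RPM, with the log2 ratio at 0.35 (-0.48 to 1.18). FOXO3 had 42 and 37, or 2.53 and 2.03 RPM. FOXO6 (chromosome 1, 41827594 to 41849262, plus strand) had 46 and 27, or 2.77 (2.03 to 3.70) and 1.48 RPM (0.974 to 2.15), with the log2 ratio at -0.91 (-1.59 to -0.22). FOXO6 had the tallest DMSO peak of all 50 genes, and FOXO3 the tallest MAK683 peak. FOXO3B, a copy of FOXO3 elsewhere in the genome, had 33 and 23 tags at the start of ZNF286B. The subfamily median, which includes FOXO3B, was -0.49, beside -0.46 for all genes. It summarizes 4 ratios that ranged from -0.91 to 0.35.

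The FOXP genes, which act in brain, lung and lymphocytes, were unlike each other. FOXP2 (chromosome 7, 113726382 to 114333827, plus strand) had no DMSO peak at its TSS and 20 tags in MAK683, or 1.09 RPM (0.669 to 1.69), in a peak from 114053840 to 114056453 whose summit was at -32 bp. This was the tallest of the 6 peaks found only in MAK683. It lies in an intron of longer FOXP2 transcripts, and when the TSSs of all basic transcripts were used FOXP2 was no longer a gene with a peak in MAK683 alone. FOXP1 had 15 and 13 tags, or 0.904 RPM in DMSO and 0.712 in MAK683. FOXP4 had 32 and 28, or 1.93 and 1.53 RPM.

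The remaining subfamilies were lower in MAK683 wherever both libraries had a peak. So were most genes, since 13.5% of all genes with a peak in both were higher. The FOXN median of -0.28 lay above the -0.46 of all genes. FOXM1, which drives mitotic genes, had 20 tags in DMSO and 16 in MAK683, or 1.20 and 0.876 RPM, and RHNO1 starts at -49 bp on the other strand. FOXN2, FOXN3 and FOXN4 had 38, 33 and 17 tags in DMSO and 36, 30 and 15 in MAK683. FOXL1, a gene of gut mesenchyme, had 20 and 17, and FOXL2, the granulosa cell regulator of the ovary, shared its peaks of 12 and 9 tags with FOXL2NB. FOXS1 had 26 and 19 tags, and FOXL3 had 10 in MAK683 alone. No interval of these ratios excluded 0. The TSS used for FOXN3 lies inside the gene, next to that of FOXN3-AS1.

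The bases covered by peaks gave a different picture from the heights. Within 3 kb of the TSS the 50 genes held 80 peaks in DMSO and 122 in MAK683, a ratio of 1.53, and all protein-coding genes 28629 and 30678, a ratio of 1.07. The median covered length of the forkhead genes was 1384 bp in DMSO and 1883 bp in MAK683, whereas that of all genes was 1572 and 1380 bp. At least 1000 bp more were covered in MAK683 at 9 genes, or 18%, against 8.12% of all protein-coding genes. At least 1000 bp fewer were covered at 4 genes, or 8% against 11.4%. This order turned with the peak threshold: at a −log10 q of 5 or more, 10 forkhead genes covered at least 1000 bp fewer, or 20% against 13.0%, and at 10 or more 9 did, or 18% against 12.9%. At these thresholds at least 1000 bp more were covered at 8 genes (16% against 6.34%) and 6 genes (12% against 4.88%). The threshold of 1000 bp was chosen after the data were seen. Just inside it was FOXI2 with 1082 bp more, and just outside it FOXI3 with 886 bp more.

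The 9 genes included FOXA2, FOXB1, FOXB2, FOXF1, FOXF2, FOXI2, FOXP2 and FOXQ1. FOXA2 went from 1 peak covering 368 bp in DMSO to 5 peaks covering 2505 bp in MAK683. FOXB1 went from 1 peak and 431 bp to 6 peaks and 2208 bp, although its height was not higher. FOXB2 had 1 peak in each library, of 224 bp within the window in DMSO and 2828 bp in MAK683. At these 3 genes the MAK683 peaks thus covered stretches where DMSO had none. FOXF1 went from 367 to 2168 bp and FOXF2 from 1128 to 3102 bp, again with no higher peak at FOXF2. FOXP2 and FOXQ1 had 0 bp in DMSO and 2925 and 2003 bp in MAK683. In DMSO these 9 genes covered a median of 235 bp, and in MAK683 2208 bp. Their median of 339 CpG sites within 3 kb was near the 331.5 of the 4 genes that covered fewer bases, and FOXP2 had only 41. The 4 genes were FOXN4 (2717 bp in DMSO and 560 in MAK683), FOXC1 (4223 and 3004), FOXD2 (3502 and 2396) and FOXN3 (4785 and 3716).

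**Figure D3:**
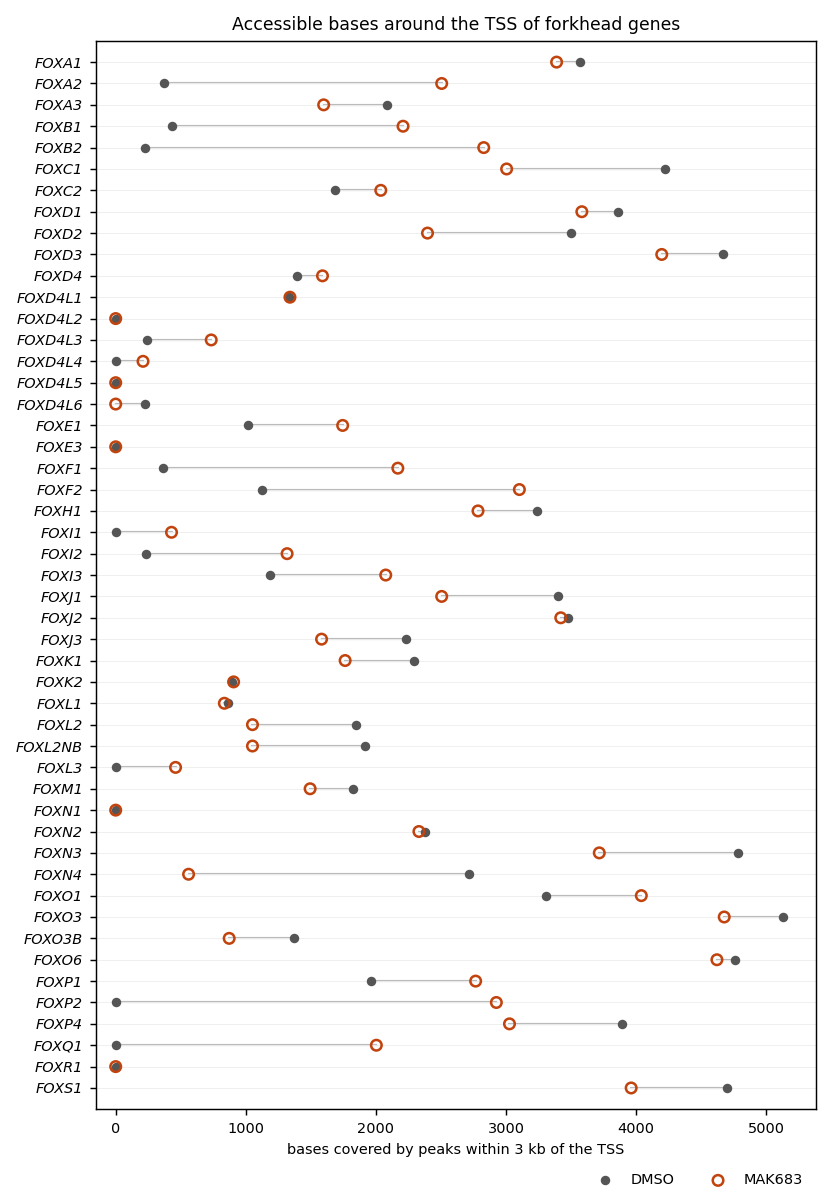
Bases covered by peaks within 3 kb of the TSS of the forkhead genes, in DMSO (filled points) and MAK683 (open circles). FOXA2, FOXB1, FOXB2, FOXF1, FOXF2, FOXP2 and FOXQ1 lie over 1500 bp further right in MAK683, and FOXN4 goes from 2717 to 560 bp.

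By subfamily, FOXB covered 655 bp in DMSO and 5036 bp in MAK683, and FOXF 1495 and 5270 bp. FOXI covered 1424 and 3821 bp, FOXP 5848 and 8717 bp, and FOXA 6020 and 7491 bp. These 5 subfamilies covered more in MAK683, as did FOXE with 1016 and 1744 bp. In FOXA only FOXA2 covered more, and FOXA1 and FOXA3 covered fewer bases. In FOXP, FOXP2 (0 and 2925 bp) and FOXP1 (1961 and 2766) covered more and FOXP4 (3887 and 3026) fewer. FOXC went the other way, with 5910 and 5041 bp, as did FOXD with 15217 and 14046, FOXJ with 9111 and 7507, FOXK with 3188 and 2669 and FOXN with 9875 and 6606. FOXL, counted with FOXL2NB, also covered less in MAK683, with 4625 and 3397 bp. FOXO was nearly level, with 14572 and 14207 bp. With 2 to 10 genes in a subfamily and 1 library per group, these differences between subfamilies were not tested.

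Peaks further out were then counted, from 3 to 50 kb on either side of each TSS. The forkhead genes had a median of 6 such peaks in DMSO and 9.5 in MAK683, and all protein-coding genes 6 and 7. The sums were 364 and 499, a ratio of 1.37, against a ratio of 0.989 over all genes. At least 5 more peaks in MAK683 were found around 16 forkhead genes, or 32%, and around 15.4% of all protein-coding genes. At least 5 fewer were found around 3 (FOXH1, FOXM1 and FOXO3), or 6% against 18.9%. The threshold of 5 peaks was chosen after the data were seen, and windows of neighbouring genes share peaks. The sums, medians and shares of the forkhead genes include FOXD4 and its 6 copies. Each of these had more such peaks in MAK683, and the figures without them were not calculated.

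FOXA2 had 0 peaks from 3 to 50 kb in DMSO and 12 in MAK683. FOXF1 had 2 and 18, and FOXO1 had 0 and 16. These 3 genes stood in sparse surroundings in DMSO. FOXB2 had 1 and 10, FOXE1 had 4 and 13, FOXA1 had 4 and 12, and FOXI3 had 0 and 7. FOXF2, FOXI1 and FOXB1 also passed the threshold, with 7 and 14, 2 and 8, and 0 and 5. A further 5 were FOXD4 (6 and 24), FOXD4L3 (4 and 15), FOXD4L1, FOXD4L5 and FOXD4L6, which lie in duplicated sequence. This count depended on the peak threshold: restricted to a −log10 q of 10 or more, 0 forkhead genes and 0.172% of all genes had at least 5 more.

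**Figure D4:**
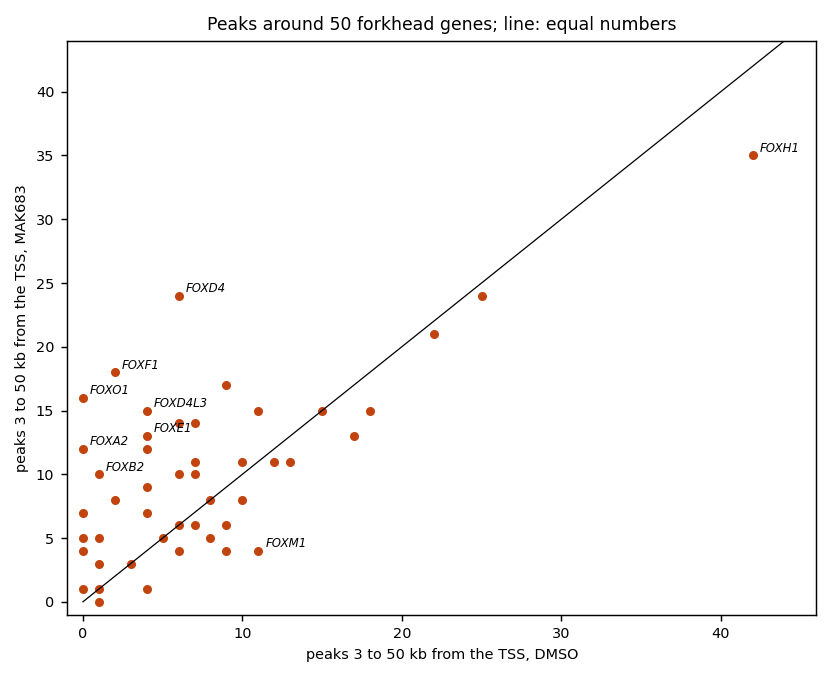
Number of peaks 3 to 50 kb from the TSS of each of the 50 forkhead genes, in DMSO (x axis) and MAK683 (y axis); the line marks equal numbers, coincident genes share a point, and genes with at least 9 more or 7 fewer peaks in MAK683 are named. FOXA2 and FOXO1 sit at 0 in DMSO and at 12 and 16 in MAK683.

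Leaving out the FOXD4-like copies and FOXL2NB, forkhead genes whose TSSs lie under 500 kb apart formed clusters at 3 places. The FOXF1, FOXC2 and FOXL1 cluster (chromosome 16, 86534133 to 86622155, with 10 kb beyond the outer TSSs) held 10 peaks in DMSO and 23 in MAK683, which covered 2.07 times as many bases. The FOXQ1, FOXF2 and FOXC1 cluster (chromosome 6, 1302333 to 1620150) held 19 and 38 peaks, covering 12.9 and 24.3 kb. Peak numbers in these 2 clusters were 2.30 and 2.00 times as many in MAK683, above the 1.42 of chromosomes 1 to 22. The tallest peak did not differ in the same way: it had 20 tags in both libraries at the first cluster, and 30 in DMSO and 29 in MAK683 at the second. The FOXE3 and FOXD2 pair (chromosome 1, 47871957 to 47913716) went the other way, with 13 peaks in DMSO and 6 in MAK683, covering 7.67 and 5.08 kb.

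**Figure D5:**
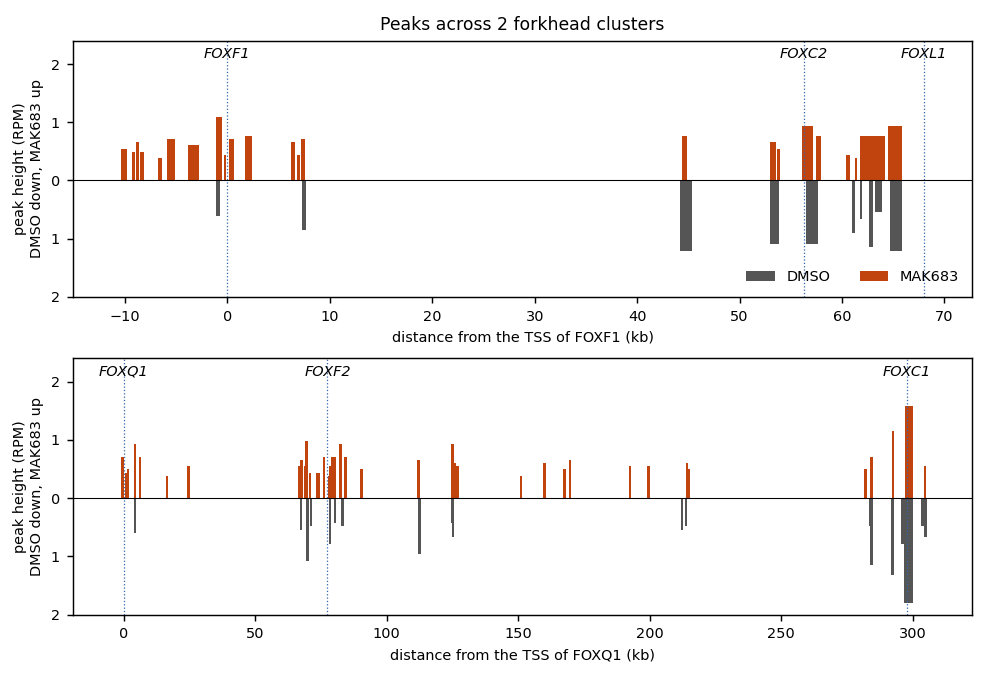
Height in RPM and position of every peak in the FOXF1/FOXC2/FOXL1 (top) and FOXQ1/FOXF2/FOXC1 (bottom) clusters, as distance in kb from the first TSS, with DMSO drawn downwards, MAK683 upwards and TSSs dotted. MAK683 peaks surround FOXF1, FOXQ1 and FOXF2 where DMSO has few or none, while the tallest peak of that cluster, at FOXC1, is present in both (1.81 and 1.59 RPM).

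Genes that work with forkhead factors were examined next. Of 10 partners of FOXA in endoderm, 7 had a promoter peak in both libraries and 6 of these were higher in MAK683, or 85.7% against 13.5% of all genes, with a median log2 ratio of 0.57 (-0.44 to 1.53). Of these 7 genes, 4 had a mean height under 1 RPM, where 37.6% of all genes were higher. PROX1, a regulator of liver and lymphatic development, had 11 tags in DMSO and 35 in MAK683, a log2 ratio of 1.53 (0.55 to 2.51). This was the only interval of this list that excludes 0, or 14.3% against 0.952% of all genes above 0. HHEX had a DMSO peak alone, and HNF4A had none in either library. Of the 11 Hedgehog pathway genes, all had a peak in both libraries, 5 were higher in MAK683, or 45.5% against 13.5%, and the median was -0.61 (-0.78 to 0.75). At a mean height of 1 RPM or more, 4 of 9 were higher, or 44.4% against 8.52% of all genes. GLI3, a transcription factor of the pathway, had 13 and 30 tags and a log2 ratio of 1.07 (0.13 to 2.01). Its interval alone lay above 0, or 9.09% against 0.952% of all genes. GLI1 (-0.82) and SUFU (-0.72) had intervals below 0, or 18.2% against 20.9%.

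Of the 18 FOXO pathway genes, 17 had a peak in both libraries. Of these 17, 3 were higher in MAK683 (IRS2, SESN3 and TXNIP), or 17.6% against 13.5% of all genes. All 17 had a mean height of 1 RPM or more, where 8.52% of all genes were higher. The median log2 ratio was -0.42 (-0.56 to -0.14). The intervals of BCL6 and CDKN1B lay below 0, or 11.8% against 20.9% of all genes. SGK1 had a peak of 14 tags in MAK683 alone, or 5.56% against 7.92%. Of the 10 FOXM1 targets, which are genes of mitosis, all had a peak in both libraries. None was higher in MAK683, or 0 of 10 against 13.5% of all genes, with a median of -0.57 (-0.95 to -0.39). Of these 10, 8 had a mean height of 1 RPM or more, where 8.52% of all genes were higher. Only CENPF had an interval below 0, with 51 and 29 tags, or 10% against 20.9% of all genes. The median of all genes was -0.46.

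For comparison, T-box and PAX genes, which also encode developmental transcription factors, were examined. A promoter peak in MAK683 alone was present at 5 of 15 T-box genes (33.3%) and 4 of 9 PAX genes (44.4%). It was present at 6 of 50 forkhead genes (12%) and 7.92% of all protein-coding genes. Among genes with a peak in both libraries, 2 of 9 T-box genes (22.2%) and 3 of 5 PAX genes (60%) were higher in MAK683. The shares were 26.3% of the 38 forkhead genes and 13.5% of all genes. At least 1000 bp more were covered in MAK683 at 5 of 15 T-box genes (33.3%) and 6 of 9 PAX genes (66.7%). The shares were 18% of the forkhead genes and 8.12% of all genes. The difference between these families was not tested.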

How the data were processed

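ATAC-seq of G401 cells was available as 1 peak list per library. Per the study's methods, the authors trimmed 150 bp paired reads with Trim-galore and mapped these with Bowtie2 to hg19. The peaks were called by MACS 2.1.1.20160309 in each library separately, per the file headers without a control, reading tags as single ends shifted by -100 bp and extended to 200 bp, with 1 tag kept per position, a q-value cutoff of 0.05 and no local background. The labels name other versions. The deposited pileup signal is in whole tags with no correction for depth. The deposited fold enrichment (a ratio), −log10 p-value and −log10 q-value depend on depth; the fold and the −log10 q-value served only in alternatives, and the −log10 p-value was not used.

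Genes and TSSs came from GENCODE 44 lifted to GRCh37, with 1 TSS per gene, that of the Ensembl canonical transcript (3 FOXD4-like genes had none marked and took the longest basic transcript). Heights were pileup over tags after filtering, per 1000000. Height intervals are 95% exact Clopper-Pearson, and those of log2 ratios take Poisson error as normal on the log scale. They cover counting error only, since without molecular identifiers reads may be copies of 1 molecule. RefSeq promoter sequences were found for 38 of 50 genes, 34 of them at the same TSS. The sequences printed were set by rank of the log2 ratio, or by name order for genes without a peak; FOXP2 and FOXQ1 were added after their values were seen. The forkhead genes are named, apart from an item that is not reported here though counts include it. The code was tested on simulated data. The genes, lists and thresholds were chosen with earlier results of these data known. Python 3.11.15, numpy 2.4.6, pandas 2.3.3, scipy 1.17.1 and matplotlib 3.10.9 were used.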

Additional observations from a re-analysis of the deposited data

How the results depend on the processing

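With 1 library per group, depth and preparation cannot be told apart from treatment, and at the lowest listed height of 6 tags a missing peak is not an absent signal. No paired analysis was possible because each group has 1 library. Of 186 values of single genes under other scales and windows, 184 stayed within the counting interval. This was largely fixed in advance, since the other scales moved every gene by nearly the same amount, small beside its interval. It therefore says little about robustness. The 2 others were those of FOXH1: -1.64 with a 1 kb window and 1.32 with summits within 3 kb. Directions also turned at FOXD4 (-0.40 with a 1 kb window and -0.14 with summits within 3 kb), FOXI2 (-0.14 with a 1 kb window), FOXD4L3 (0.01 with summits within 3 kb), and FOXA1 and FOXD1 (both 0.05 without depth scaling). Intervals below 0 numbered 4 as reported. They numbered 2 without depth scaling (FOXA3 and FOXK2 lost), or 5.26% against 10.2% of all genes. With the fold enrichment they numbered 3 (FOXK2 lost), or 7.89% against 13.5%. At a −log10 q of 10 or more they numbered 2, or 9.09% against 23.2%. FOXH1 joined the 4 when scaled to all tags (13.2% against 22.5%) or with a 1 kb window (14.7% against 21.8%). With summits within 3 kb the FOXH1 interval instead lay above 0, as did that of FOXI3, or 5.26% against 0.969%. At a −log10 q of 10 or more no forkhead interval lay above 0, against 0.207% of all. Under the other settings only that of FOXI3 did.

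With the median of all genes subtracted, the median log2 ratio of the forkhead genes was 0.19 and 27 of 38 were above 0 (71.1% against 49.8% of all), which restates the difference of the medians. Without depth scaling the forkhead median was -0.13. The median of all genes was -0.48 with a 1 kb window, -0.48 with a −log10 q of at least 10, -0.48 with at least 5, -0.32 without depth scaling, -0.39 with the fold enrichment, -0.48 when scaled to all tags and -0.42 with the lowest listed height for a missing peak. At a −log10 q of 10 or more, 3 of 22 genes were higher in MAK683 (13.6% against 8.05% of all) and the median covered length in MAK683 was 858.5 bp, as fewer peaks were counted. Genes higher in MAK683 numbered 6 of 14 under a mean of 1 RPM and 4 of 24 at 1 RPM or more. Genes with a peak in DMSO alone numbered 2 with a 1 kb window, 4 with a −log10 q of at least 10, 2 with at least 5, 2 with all basic TSSs and 0 without the FOXD4-like copies and FOXL2NB. The share of all protein-coding genes with a peak in DMSO alone was not calculated under the changed window, filters and TSSs. These counts of peaks in DMSO alone therefore cannot be read against a background.

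Of the 5 other windows, filters and TSS sets, FOXP2 had a peak in MAK683 alone under 4, all but the basic TSSs, and FOXQ1 under 4, all but a −log10 q of 10 or more. FOXI1, FOXL3 and FOXD4L4 no longer did at a −log10 q of 5 or 10, nor FOXI1 and FOXD4L4 with a 1 kb window. Other genes did instead, FOXA2 under all 3 of these settings and FOXI2 at 5. Genes with a peak in MAK683 alone numbered 6 with a 1 kb window (12% against 6.74% of all). With summits within 3 kb they numbered 6 (12% against 8.09%), and with all basic TSSs 5 (10% against 7.89%). At a −log10 q of 5 or more they numbered 6 (12% against 5.66%), and at 10 or more 8 (16% against 4.18%). Genes covered by fewer bases in MAK683 numbered 12 at a threshold of 500 bp (24% against 29.2% of all), 1 at 1500 bp (2% against 3.66%), and at 1000 bp 10 at a −log10 q of 5 or more (20% against 13.0%) and 9 at 10 or more (18% against 12.9%). Those with at least 5 more peaks from 3 to 50 kb numbered 5 at a −log10 q of 5 or more (10% against 3.51%) and 0 at 10 or more (against 0.172%), and 10 had at least 8 more (20% against 8.58%). Where no cause is given, the cause was not tested.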

Other observations

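The 3 X-linked forkhead genes were outside the chromosomes examined. FOXO4, a member of the insulin-regulated FOXO group, had a promoter peak of 13 tags in each library, or 0.783 RPM in DMSO and 0.712 RPM in MAK683. FOXP3, the regulator of regulatory T cells, and FOXR2 had no promoter peak in either library.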
